A study of Mus musculus with 6 samples.

Results

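Interferon-stimulated genes were measured in naive CD4 T cells, which are helper T cells before their first encounter with antigen. The cells came from mice labelled Trim28 KO and from wild-type mice. The list was given as 59 gene symbols: the classical antiviral genes (Ifit, Oas, Mx, Rsad2, Isg15), the factors that switch them on (Stat2, Irf9), and the GTPase, PYHIN, PARP, Trim30 and Phf11 families. Symbols were matched to RefSeq transcript rows of the deposited table, and where a gene had several rows the one with the highest total stands for it. Of the 59 genes, 56 matched a row, among 16911 symbols in all, and 54 passed the filter on low values. Ddx60, Ifi203 and Ifi206 had no matched row and are not analysed here. Oas1g, at 1.10 to 8.77 normalized reads, and Ly6a, at 0 to 2.79, lay below the filter, and the Ly6a row stands for 1 of the 6 curated transcripts of that gene.

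The Trim28 KO group held 3 libraries (KO1, KO2 and KO3) and the wild-type group 3 libraries from littermates (WT1, WT2 and WT3), all on the C57BL/6 strain. The labels give the genotype as Trim28 KO and give neither the allele, the promoter that drove the deletion, the age nor the sex of the mice, and they do not say whether each library came from its own mouse. The Trim28 protein is recruited to chromatin by zinc finger factors and brings enzymes that silence genes and transposable elements. The comparison asks how transcripts in resting naive cells differ between the Trim28 KO and wild-type groups. No interferon treatment is recorded for either group.

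Type I interferons signal through a receptor made of Ifnar1 and Ifnar2, whose kinases Tyk2 and Jak1 phosphorylate Stat2. Stat2 and Irf9 then act in a complex that binds interferon-stimulated response elements in promoters and turns on a large antiviral program. T cells keep many of these genes at a basal level without infection, and Usp18 and the Socs proteins restrain the signal.

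The response element was searched for in RefSeq promoter sequences (GRCm38.p6, from 250 bases before to 50 bases after the start site) as a pair of GAAA runs with any 2 bases between them, on either strand, with overlapping matches counted. Of the 59 genes, 46 had a promoter entry, and 29 of these (63.0%) held at least 1 match, against 1079 of 27025 genes in all (3.99%). A match describes letters only and is no evidence of binding. Stretches of 30 bases from 1 gene of several families are shown first, on the strand of the gene, with the match in capitals. The genes were picked for holding a match, so the likeness of the capitals follows from the search.
Stat2, chr10:128270266-128270295, plus strand: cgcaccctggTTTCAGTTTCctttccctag
Ifit1, chr19:34640775-34640804, plus strand: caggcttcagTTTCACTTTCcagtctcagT
Oas3, chr5:120777715-120777744, minus strand: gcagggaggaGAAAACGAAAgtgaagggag
Gbp2, chr3:142620594-142620623, plus strand: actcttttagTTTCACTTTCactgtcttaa
Igtp, chr11:58199512-58199541, plus strand: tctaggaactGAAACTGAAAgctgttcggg
Trim30a, chr7:104465210-104465239, minus strand: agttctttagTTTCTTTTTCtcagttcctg

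In Stat2, Ifit1, Gbp2 and Trim30a the match lay on the strand opposite to the gene, so it reads as a pair of TTTC runs with 2 bases between them. The final capital of the Ifit1 stretch opens a further match. The whole promoter windows of Isg15 and Ifi44 follow, because these were the genes of smallest p that had an entry, the first higher and the second lower in the knockout libraries. Usp18 and Oas2, which also belonged to the 4 genes of smallest p, are named only.
Isg15, chr4:156200769-156201068, minus strand: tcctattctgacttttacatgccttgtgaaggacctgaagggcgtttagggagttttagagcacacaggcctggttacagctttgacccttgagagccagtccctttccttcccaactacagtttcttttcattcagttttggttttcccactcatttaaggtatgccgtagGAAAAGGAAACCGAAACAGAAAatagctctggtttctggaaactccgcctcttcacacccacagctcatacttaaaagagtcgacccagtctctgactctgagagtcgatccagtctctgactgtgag
Ifi44, chr3:151749861-151750160, minus strand: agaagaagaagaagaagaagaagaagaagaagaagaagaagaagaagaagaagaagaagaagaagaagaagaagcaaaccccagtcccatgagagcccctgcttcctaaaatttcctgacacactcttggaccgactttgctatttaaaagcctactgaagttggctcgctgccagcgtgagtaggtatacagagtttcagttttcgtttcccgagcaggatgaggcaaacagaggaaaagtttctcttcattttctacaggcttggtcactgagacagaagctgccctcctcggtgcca

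Isg15 held 3 overlapping matches, between positions 173 and 194 of the window. Ifi44 held 0 matches, which says only that these letters are not in this window.

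Values below are normalized read counts, that is, reads divided by a size factor per library, turned back from the deposited log10 scale. The libraries held 44372701, 22005759 and 36810371 reads in KO1, KO2 and KO3, and 23438722, 29687968 and 40586195 reads in WT1, WT2 and WT3. Trim28 itself averaged 871 ± 330 in the knockout libraries and 8715 ± 622 in the wild-type libraries (SD, n = 3 each), 9.99% of the wild-type level. The T cell gene Cd4 was high in every library, at 27990 to 32564 in the knockout and 31880 to 34970 in the wild-type libraries. The 11 matched T cell markers summed to 185909, 172835 and 154394 in KO1, KO2 and KO3. In WT1, WT2 and WT3 they summed to 183280, 195172 and 185781, so KO3 was lowest. Of these 11 genes, 0 were called and 3, all lower, had an unadjusted p under 0.05 in limma. Over all rows these shares were 1.51% and 12.7%, and with 11 genes nothing is read from the counts. KO3 stood apart in markers of other cells: 9 B cell markers summed to 1997 in KO3 against 335 to 482 in the other 5 libraries, and 5 MHC class II genes summed to 5128 in KO3 against 160 to 847 in the other 5 libraries. Summed CD8 T cell, NK cell, monocyte, plasma cell, conventional dendritic cell and antigen-experienced T cell markers were also highest in KO3. Wild-type libraries differed too. The neutrophil sum was highest in WT1, at 452, against 185 in KO3, 161 in WT3 and 20.9 to 30.6 in the others. The erythroid sum was also highest in WT1, at 34.9 against 23.1 in KO3. MHC class II sums were 791 in WT1 and 847 in WT3, against 160 in WT2. The sum of 5 regulatory T cell markers was higher in every knockout library. It was 2462, 2420 and 4841 in KO1, KO2 and KO3, against 1822, 2174 and 1800 in WT1, WT2 and WT3. Not every marker in this sum followed it, and the values of Foxp3 overlapped between the groups. The part of these cells in the results below was not tested. KO2 and WT1, the libraries with the fewest reads, held 12677 and 13625 normalized Y-linked reads, and the other 4 held at most 2.39. The X inactivation transcript Xist was present in every library. It was at 26815, 16359 and 19461 in KO1, KO2 and KO3, against 12289, 28062 and 20568 in WT1, WT2 and WT3. KO2 and WT1 thus held both, and the split by Y-linked reads is not taken as a split by sex. In bulk RNA, fewer cells of a type and less RNA per cell cannot be told apart.

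Most interferon-stimulated genes differed little between Trim28 KO and wild-type cells, 50 of 54 by less than 1.5-fold in the fit, while Usp18 rose by about 2-fold and Ifi44 fell. Usp18 and Ifi44 were the only genes of the list to pass the test, limma with Benjamini-Hochberg adjustment over all 13022 rows at an adjusted p under 0.05. They make 1 higher and 1 lower of 54 tested genes (3.70%), against 1.51% of all rows called, 1.19% higher and 0.315% lower. At an unadjusted p under 0.05 there were 10 of 54 (18.5%), 2 higher and 8 lower, against 12.7% of all rows. The log2 fold change was below 0 in 38 of 54 genes (70.4%), against 49.6% of all rows. Its median was -0.12 over the list (interquartile range -0.22 to 0.01) and 0.0019 over all rows (interquartile range -0.15 to 0.19), on the log2 scale of the normalized count plus 1.

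The knockout and wild-type values did not overlap in 14 of the 54 genes (25.9%), against 18.8% of all rows. Usp18 and Isg15 lay higher in all knockout libraries. Irf9, Oas1a, Oas2, Ifi44, Ifi27l2a, Ifi35, Gbp2, Igtp, Irgm1, Tgtp2, Trim30a and Samd9l lay lower, which is 12 genes. The shares over all rows were 9.21% for higher and 9.58% for lower. Of the 52 that did not pass, 44 had a 95% interval within 2-fold in either direction and 32 within 1.5-fold, so a change of that size was outside the interval for these genes and inside it for the rest.

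**Figure D1:**
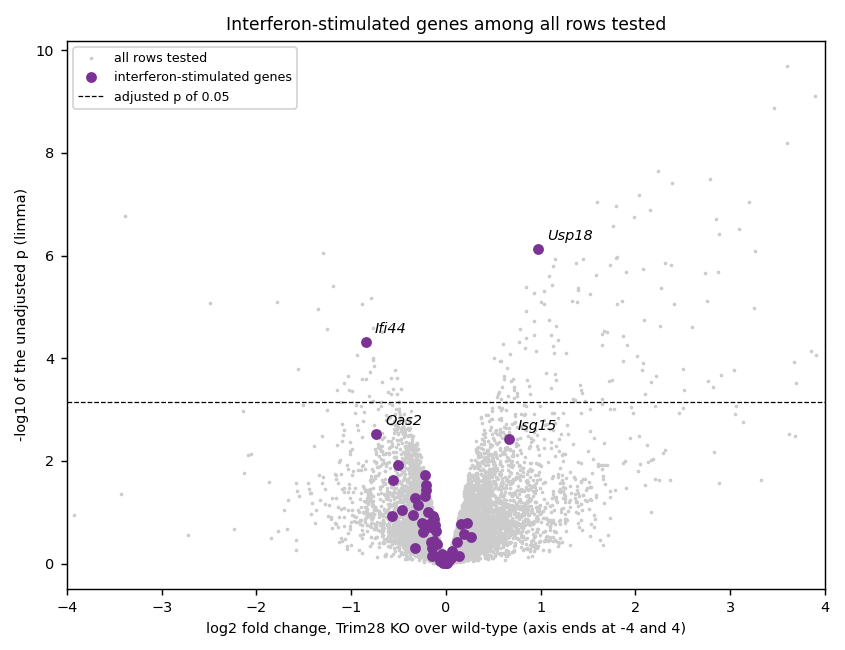
Log2 fold change (Trim28 KO over wild-type, horizontal axis) and -log10 of the unadjusted limma p (vertical axis) for the 13022 rows tested, with the 54 tested interferon-stimulated genes in purple and 28 rows beyond the axis ends not shown. Usp18 and Ifi44 lie above the dashed line of an adjusted p of 0.05, and Isg15 and Oas2 lie below it.

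Among the genes of ISG15 conjugation, the pathway that attaches the ubiquitin-like protein ISG15 to other proteins, Usp18 rose, Isg15 was higher in every knockout library without passing the test, and Herc6 was at a similar level. Usp18 is the protease that takes ISG15 off proteins, and it also binds Ifnar2 and damps type I interferon signalling. Its row (chr6:121245906-121270917) held 4997, 4987 and 4760 normalized reads in KO1, KO2 and KO3, against 2495, 2525 and 2469 in WT1, WT2 and WT3. The values within each group lay close together and the groups were far apart. The knockout mean was 4915 ± 134 and the wild-type mean 2496 ± 28.4 (SD, n = 3 each), a ratio of 1.97. The log2 fold change was 0.98 (SE 0.08, 95% interval 0.80 to 1.15), with an adjusted p of 0.000369 in limma, the 26th smallest p of all rows. With 3 libraries a group, the smallest p an exact permutation test (two-sided) can reach is 0.1, which Usp18 and every other gene whose groups did not overlap reached. In the 4 libraries with nearly no Y-linked reads the log2 fold change was 0.97, with an adjusted p of 0.0673 in limma.

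None of the 100-base windows of the Usp18 transcript occurs in another gene's transcripts in GENCODE release M21, and the annotation places the lincRNA Gm44148 on the opposite strand over 124 of its exonic bases (4.44%). The sources used here do not say whether the library kit kept the strand, so over those bases reads of the pair cannot be told apart. The neighbouring genes tested, Pex26 and Tuba8, lie on the same side of Usp18 and did not pass the test. Slc6a13 and Slc6a12, on the other side, were below the filter and not tested. Pex26, needed for peroxisome assembly, averaged 869 in the knockout and 838 in the wild-type libraries. Tuba8, a tubulin, averaged 19.4 in the knockout and 10.8 in the wild-type libraries, with its highest value in KO3.

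Isg15 (chr4:156199424-156200818) encodes the modifier itself. It held 462, 324 and 341 normalized reads in KO1, KO2 and KO3, against 215, 263 and 227 in WT1, WT2 and WT3. All knockout values were above all wild-type values, with KO1 highest. On the log2 scale the fold change was 0.66 (SE 0.17, 95% interval 0.28 to 1.04), with an adjusted p of 0.130 in limma. Herc6, the main ligase that attaches ISG15 in mice, averaged 3385 ± 119 in knockout and 3639 ± 163 in wild-type libraries, with a log2 fold change of -0.10 (95% interval -0.29 to 0.08). An overlapping gene, Gm45193, shares 20.9% of its 100-base windows, so its value is uncertain to that extent.

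**Figure D2:**
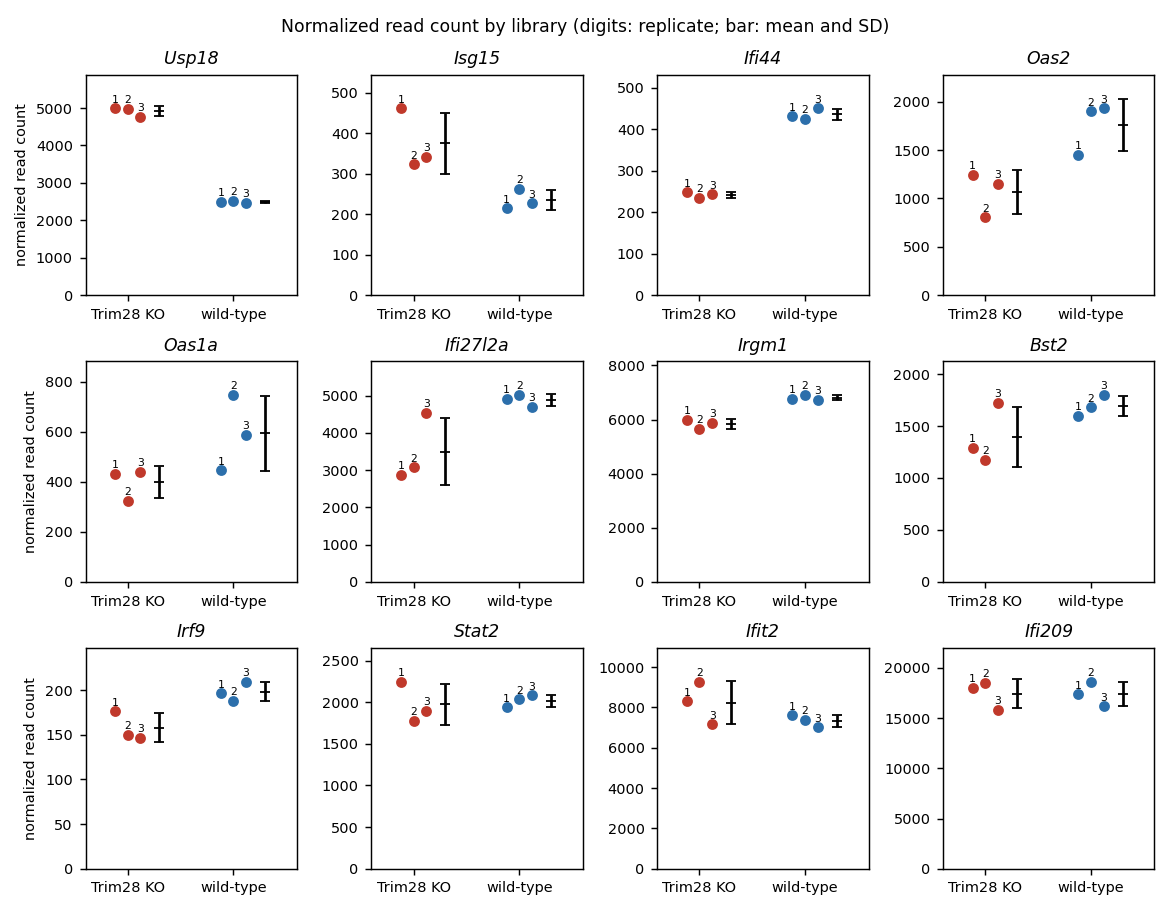
Normalized read count by library for 12 interferon-stimulated genes, Trim28 KO in red and wild-type in blue, with the replicate number above each point and a bar for the mean and SD of 3 libraries. Usp18 and Ifi44 show tight groups that lie apart, Oas2 and Isg15 show groups that lie apart with a wider spread, and Stat2 and Ifi209 show groups that overlap.

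Among 12 other antiviral effectors tested, Ifi44 fell and 11 did not pass the test, with a median log2 fold change of -0.15. Ifi44 is a cytoplasmic protein strongly induced by type I interferon. Its row (chr3:151730922-151749910) held 248, 235 and 242 normalized reads in KO1, KO2 and KO3, against 431, 425 and 450 in WT1, WT2 and WT3. The groups were far apart relative to their spread, with 55.5% of the wild-type level left in knockout libraries. Its log2 fold change was -0.85 (SE 0.11, 95% interval -1.10 to -0.59), with an adjusted p of 0.00649 in limma, the 96th smallest p of all rows. In the 4 libraries with nearly no Y-linked reads it was -0.83, with an adjusted p of 0.263 in limma. Ifi44 shared no 100-base window with other genes, and its row is 1 of its 2 curated transcripts.

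Ifi27l2a, a small membrane protein of the interferon-induced Ifi27 family, had 2882, 3076 and 4545 normalized reads in KO1, KO2 and KO3, against 4924, 5019 and 4702 in WT1, WT2 and WT3. KO1 and KO2 lay well below the wild-type range and KO3 just below it. Over all 6 libraries the log2 fold change was -0.51 (SE 0.16), with an adjusted p of 0.215 in limma. Without KO3, the library with the highest sums of B cell, MHC class II and other non-naive markers, it was -0.71, with an adjusted p of 0.00172. Whether those markers bear on the value was not tested. Of 20 settings, Ifi27l2a passed in 1, the fit without KO3, which called 562 rows in all against 196. Without KO2 its log2 fold change was -0.43, with an adjusted p of 0.473 in limma. The other tested row of Ifi27l2a averaged 85.9 in knockout and 104 in wild-type libraries, and its groups overlapped. That row had a log2 fold change of -0.22 and an adjusted p of 0.770 in limma over all libraries.

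Bst2, the tetherin that holds budding viruses at the cell surface, was also lowest in KO1 and KO2. It had 1292, 1173 and 1724 normalized reads in KO1, KO2 and KO3, against 1601, 1680 and 1798 in WT1, WT2 and WT3, so KO3 lay inside the wild-type range. The log2 fold change was -0.30, with an adjusted p of 0.451 in limma over all libraries, and -0.46 with an adjusted p of 0.0401 without KO3. Bst2 passed in that 1 of 20 settings only. Without KO2 its log2 fold change was -0.18, with an adjusted p of 0.704 in limma. Bst2 is also a marker of plasmacytoid dendritic cells, and their defining gene Siglech was at 0.714, 0 and 54.2 in KO1, KO2 and KO3, against 6.97, 1.10 and 3.86 in WT1, WT2 and WT3.

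Ifi35, a protein that binds the interferon-induced partner Nmi, had 2782, 2850 and 3057 normalized reads in KO1, KO2 and KO3, against 3374, 3254 and 3447 in WT1, WT2 and WT3. Every knockout value was lower, by a small margin, with a log2 fold change of -0.21 and an adjusted p of 0.320 in limma. An antisense gene, Gm11626, overlaps 16.8% of its exonic bases. The remaining effectors had log2 fold changes between -0.16 and 0.14. Eif2ak2, the kinase that halts translation on sensing double-stranded RNA, averaged 2047 ± 192 in knockout and 2034 ± 132 in wild-type libraries. Rsad2, the enzyme viperin, averaged 743 ± 206 and Cmpk2, its genomic neighbour, 877 ± 116 in knockout libraries, against 705 ± 31.7 and 976 ± 9.77 in wild-type libraries. Rtp4 averaged 1924 ± 237 in knockout and 2140 ± 2.20 in wild-type libraries, Xaf1 416 ± 49.5 in knockout and 451 ± 20.8 in wild-type libraries, and Isg20, an RNA exonuclease, 138 ± 40.0 in knockout and 135 ± 7.76 in wild-type libraries. Mx1 and Mx2, whose products are defective in most laboratory strains, were low, at 59.2 ± 29.6 and 34.9 ± 10.1 in knockout libraries, against 50.1 ± 6.26 and 37.7 ± 6.11 in wild-type libraries, and KO3 was the highest library for Mx1 at 93.3.

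The Oas family makes short adenylate chains that activate RNase L when double-stranded RNA is present, and 5 of its members were tested. None passed the test, and Oas2 and Oas1a lay lower in every knockout library. Over all rows 9.58% lay lower without overlap, and with 5 genes nothing is read from the count. Oas2 (chr5:120730333-120749886) had 1243, 804 and 1152 normalized reads in KO1, KO2 and KO3, against 1454, 1903 and 1935 in WT1, WT2 and WT3. KO2 and WT1, the libraries with Y-linked reads, were each the lowest of their group. The log2 fold change was -0.74 (SE 0.18, 95% interval -1.15 to -0.33), with an adjusted p of 0.114 in limma. It was -0.72, with an adjusted p of 0.0138, when log2 of the summed Y-linked reads plus 1 entered the fit as a covariate. That covariate sets apart KO2 and WT1, which also had the fewest reads. Without KO3 the log2 fold change was -0.81, with an adjusted p of 0.0396. Of 20 settings, Oas2 passed in these 2. Without KO2 its log2 fold change was -0.55, with an adjusted p of 0.241 in limma.

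Oas1a had 431, 325 and 440 normalized reads in KO1, KO2 and KO3, against 446, 747 and 588 in WT1, WT2 and WT3. The groups came close to touching at KO3 and WT1, and the log2 fold change was -0.55 (SE 0.20), with an adjusted p of 0.295 in limma. Oas1a shares 40.9% of its 100-base windows with Oas1g, so the values of this pair are uncertain. Oas3 did not follow Oas2 and Oas1a, with 2208, 1416 and 1910 normalized reads in KO1, KO2 and KO3, against 1578, 1999 and 1851 in WT1, WT2 and WT3. Its groups overlapped, with a log2 fold change of 0.01 (95% interval -0.37 to 0.39). Oasl1, which restrains translation of Irf7 in mice, averaged 642 ± 108 in knockout and 546 ± 44.8 in wild-type libraries. Oasl2, an Oas-like protein with ubiquitin-like repeats, had the widest wild-type spread of the family, at 202, 655 and 283 in WT1, WT2 and WT3, and at 349, 233 and 339 in KO1, KO2 and KO3, with a 95% interval of the log2 fold change from -1.02 to 0.73. In all 5 genes KO2 was the lowest knockout library.

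The signalling genes of the list, Stat2, Irf9 and Dhx58, did not pass the test. Stat2 (chr10:128270498-128292853) had 2243, 1779 and 1895 normalized reads in KO1, KO2 and KO3, against 1938, 2034 and 2082 in WT1, WT2 and WT3. The groups overlapped, and the log2 fold change was -0.04 (95% interval -0.28 to 0.20). Irf9, the DNA-binding partner of Stat2, had 176, 150 and 147 normalized reads in KO1, KO2 and KO3, against 197, 188 and 209 in WT1, WT2 and WT3. All knockout values were lower, with a log2 fold change of -0.33 (SE 0.15) and an adjusted p of 0.405 in limma. Its other tested row averaged 70.6 in knockout and 97.3 in wild-type libraries, with a log2 fold change of -0.44 and an adjusted p of 0.469 in limma. Dhx58, the RIG-I relative LGP2, averaged 763 ± 232 in knockout and 821 ± 62.2 in wild-type libraries, with KO2 lowest at 509.

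**Figure D3:**
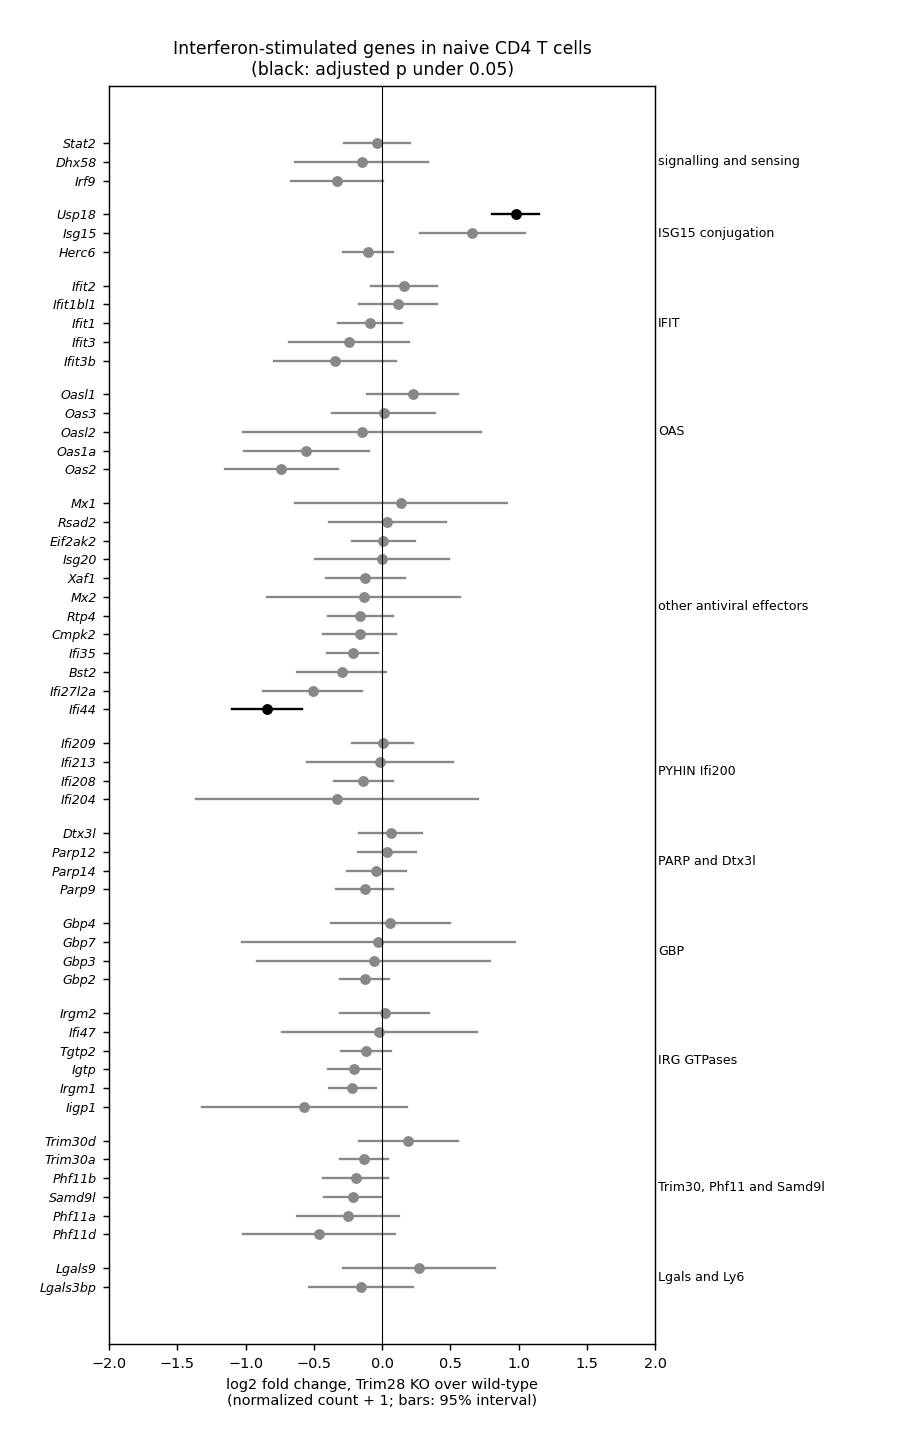
Log2 fold change of each of the 54 tested genes (points, Trim28 KO over wild-type, normalized count plus 1) with its 95% interval (bars), grouped by role and drawn in black where the adjusted p was under 0.05. Usp18 at 0.98 and Ifi44 at -0.85 lie at the ends, and 38 of 54 points lie left of 0.

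Of the upstream genes of the pathway, given from a list of 18 receptors, kinases and transcription factors, 16 were tested and 0 passed limma's test, while 2 had an unadjusted p under 0.05, a share near the 12.7% of all rows. Ifnar2, the signalling chain to which Usp18 binds, had 1915, 1999 and 2001 normalized reads in KO1, KO2 and KO3, against 1521, 1523 and 1523 in WT1, WT2 and WT3. The groups were tight and apart, with a log2 fold change of 0.37 (SE 0.08) and an adjusted p of 0.0744 in limma. Ifngr1, the binding chain of the interferon gamma receptor, had 8760, 10097 and 8335 in KO1, KO2 and KO3, against 6431, 7846 and 5763 in WT1, WT2 and WT3. Every knockout value was higher, with a log2 fold change of 0.45 (SE 0.13) and an adjusted p of 0.175.

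The partner chains showed smaller differences. Ifnar1 averaged 8035 ± 275 in knockout and 8495 ± 120 in wild-type libraries, with a log2 fold change of -0.08, and Ifngr2 averaged 2537 ± 147 in knockout and 2406 ± 133 in wild-type libraries, with 0.08. The kinase Jak1 had a log2 fold change of 0.12. Tyk2, whose row averaged 27.0 in knockout and 24.7 in wild-type libraries, had 0.11. Irf7, the factor that amplifies type I interferon production, was low, at 43.3 ± 4.21 in knockout and 40.0 ± 8.42 in wild-type libraries.

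Of 21 interferon genes listed as ligands, 6 matched a row and 2 were tested, with 0 called and 0 at an unadjusted p under 0.05 in limma. The alpha interferon rows Ifna2 and Ifna5 and the rows of Ifnab and Ifnz were at 0 to 6.43 normalized reads in every library. Ifng was at 4.28, 13.1 and 164 in KO1, KO2 and KO3, against 12.5, 3.30 and 28.6 in WT1, WT2 and WT3, so KO3 alone was high. Ifnk averaged 36.8 ± 11.8 in knockout and 28.2 ± 11.8 in wild-type libraries. Of 17 genes that restrain interferon signalling, 15 were tested, 0 were called and 0 had an unadjusted p under 0.05 in limma. Over all rows these shares were 1.51% and 12.7%. With 2 ligand genes and 15 restraining genes tested, nothing is read from the counts. The smallest p were those of Irf2bp2, a corepressor, with a log2 fold change of -0.16, Ptpn2, a phosphatase that acts on Jak1, with 0.22, and Samhd1, which depletes the DNA building blocks viruses need, with -0.16.

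The Ifit proteins bind foreign RNA and block its translation, and none of the 5 tested passed the test. Ifit2, the most abundant by read count, had 8296, 9265 and 7167 normalized reads in KO1, KO2 and KO3, against 7618, 7398 and 7024 in WT1, WT2 and WT3. KO3 lay inside the wild-type range, and the log2 fold change was 0.16 (95% interval -0.08 to 0.40). Ifit1, which binds RNA with an incomplete cap, averaged 3492 ± 414 in knockout and 3702 ± 157 in wild-type libraries. Ifit1bl1 averaged 376 ± 13.5 in knockout and 348 ± 36.0 in wild-type libraries. Ifit3 and Ifit3b, which share 31.7% and 27.4% of their 100-base windows with each other and are uncertain to that extent, had the same order of knockout libraries, with KO2 lowest and KO3 highest. Ifit3 averaged 1845 ± 541 in knockout and 2127 ± 222 in wild-type libraries, and Ifit3b averaged 467 ± 136 in knockout and 578 ± 41.7 in wild-type libraries.

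The PYHIN proteins of the Ifi200 cluster on chromosome 1 sense or bind DNA, and the 4 tested showed no difference that passed the test. Ifi209 had 18048, 18491 and 15811 normalized reads in KO1, KO2 and KO3, against 17391, 18609 and 16167 in WT1, WT2 and WT3. The ranges overlapped almost fully, with a log2 fold change of 0.0040 (95% interval -0.22 to 0.23). Ifi208 averaged 12165 ± 1196 in knockout and 13346 ± 616 in wild-type libraries. Ifi213 averaged 50.2 ± 6.59 in knockout and 50.8 ± 5.85 in wild-type libraries. Ifi204 averaged 18.7 ± 8.84 in knockout and 21.7 ± 1.95 in wild-type libraries, with a 95% interval of the log2 fold change from -1.36 to 0.70. Close copies share sequence in this cluster: 17.9% of the windows of Ifi209 occur in Ifi214, and 16.8% of those of Ifi204 occur in other genes.

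Parp9, Parp12 and Parp14 transfer ADP-ribose, and Dtx3l is the ubiquitin ligase that pairs with Parp9. None of these 4 genes passed the test, and all lay within -0.13 to 0.06 on the log2 scale. Parp14 had 15647, 14221 and 13006 normalized reads in KO1, KO2 and KO3, against 14042, 15280 and 14744 in WT1, WT2 and WT3. Its knockout libraries spread over the whole wild-type range, with a 95% interval of the log2 fold change from -0.26 to 0.17. Parp9 averaged 6578 ± 512 in knockout and 7176 ± 410 in wild-type libraries, Dtx3l 12487 ± 1235 in knockout and 11944 ± 722 in wild-type libraries, and Parp12 964 ± 25.6 in knockout and 943 ± 49.0 in wild-type libraries. Parp9 and Dtx3l overlap on opposite strands over 458 exonic bases.

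The guanylate-binding proteins and the immunity-related GTPases attack vacuoles that hold pathogens and respond mainly to interferon gamma. Of the guanylate-binding proteins, 4 were tested and none passed. Gbp2 had 5177, 5303 and 5466 normalized reads in KO1, KO2 and KO3, against 5907, 5968 and 5568 in WT1, WT2 and WT3. All knockout values were lower, though KO3 and WT3 lay close, and the log2 fold change was -0.13 (SE 0.08, adjusted p of 0.550 in limma). Gbp4 averaged 98.6 ± 13.1 in knockout and 94.5 ± 10.5 in wild-type libraries, Gbp3 40.4 ± 16.0 in knockout and 40.8 ± 11.5 in wild-type libraries, and Gbp7 12.4 ± 3.74 in knockout and 12.3 ± 0.223 in wild-type libraries.

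Of the immunity-related GTPases, 6 were tested and none passed, and Igtp, Irgm1 and Tgtp2 lay lower in every knockout library. Over all rows 9.58% lay lower without overlap, and with 6 genes nothing is read from the count. Irgm1, which protects the host's own membranes from its relatives, had 5999, 5653 and 5880 normalized reads in KO1, KO2 and KO3, against 6773, 6906 and 6730 in WT1, WT2 and WT3. The gap was clear of both groups' spread yet small, with a log2 fold change of -0.22 (SE 0.08, 95% interval -0.39 to -0.05) and an adjusted p of 0.268 in limma. Igtp had 8286, 7505 and 7343 in KO1, KO2 and KO3, against 8754, 9139 and 8749 in WT1, WT2 and WT3. It too was lower in every knockout library, with a log2 fold change of -0.21 (SE 0.08) and an adjusted p of 0.348 in limma. Tgtp2 averaged 5481 ± 61.5 in knockout and 5960 ± 334 in wild-type libraries, and 80.4% of its windows occur in its near copy Tgtp1. Irgm2 averaged 3320 ± 526 in knockout and 3274 ± 496 in wild-type libraries. Iigp1 averaged 62.7 ± 25.8 in knockout and 88.2 ± 12.2 in wild-type libraries, with KO2 lowest at 35.0, and Ifi47 averaged 79.9 ± 29.6 in knockout and 79.2 ± 19.7 in wild-type libraries.

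Of 6 genes of the Trim30 and Phf11 families and Samd9l, none passed the test, and 5 had a log2 fold change below 0. Over all rows 49.6% lay below 0, and with 6 genes nothing is read from the count. Samd9l, a restraint on cell growth and viral replication, had the highest read count of the list, with 25527, 27988 and 28631 normalized reads in KO1, KO2 and KO3, against 34141, 29810 and 31464 in WT1, WT2 and WT3. The groups did not overlap, with a log2 fold change of -0.22 (SE 0.09) and an adjusted p of 0.390 in limma. Trim30a, which restrains Toll-like receptor signalling in mice, averaged 9600 ± 302 in knockout and 10519 ± 149 in wild-type libraries. Trim30d averaged 327 ± 47.3 in knockout and 285 ± 36.2 in wild-type libraries. Phf11a, Phf11b and Phf11d averaged 252 ± 40.7, 1928 ± 171 and 69.6 ± 15.8 in knockout libraries, against 299 ± 35.2, 2205 ± 190 and 96.3 ± 20.5 in wild-type libraries.

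Lgals3bp, a secreted protein that binds galectins, had 2877, 1897 and 3018 normalized reads in KO1, KO2 and KO3, against 2662, 2962 and 2888 in WT1, WT2 and WT3. KO2 was far below the other 5 libraries, which overlapped, and the log2 fold change was -0.16 (95% interval -0.54 to 0.23). Lgals9, the galectin that binds Tim-3, averaged 101 ± 14.1 in knockout and 84.9 ± 22.7 in wild-type libraries.

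The libraries of the knockout group differed among themselves. The median difference from the wild-type mean over the 54 genes was -0.04 in KO1, -0.21 in KO2 and -0.04 in KO3 on the log2 scale, against -0.01, 0.01 and 0.0084 in WT1, WT2 and WT3. KO2 was the lowest of all 6 libraries in 24 of 54 genes, KO1 in 10 and KO3 in 8, against 5, 3 and 4 for WT1, WT2 and WT3. Without KO2 the median log2 fold change of the list was -0.030, and in the 4 libraries with nearly no Y-linked reads it was -0.044. The genes together took 0.550% to 0.606% of each library's reads. KO2 and WT1 share Y-linked reads and low depth, and the part of either in these medians was not tested.

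**Figure D4:**
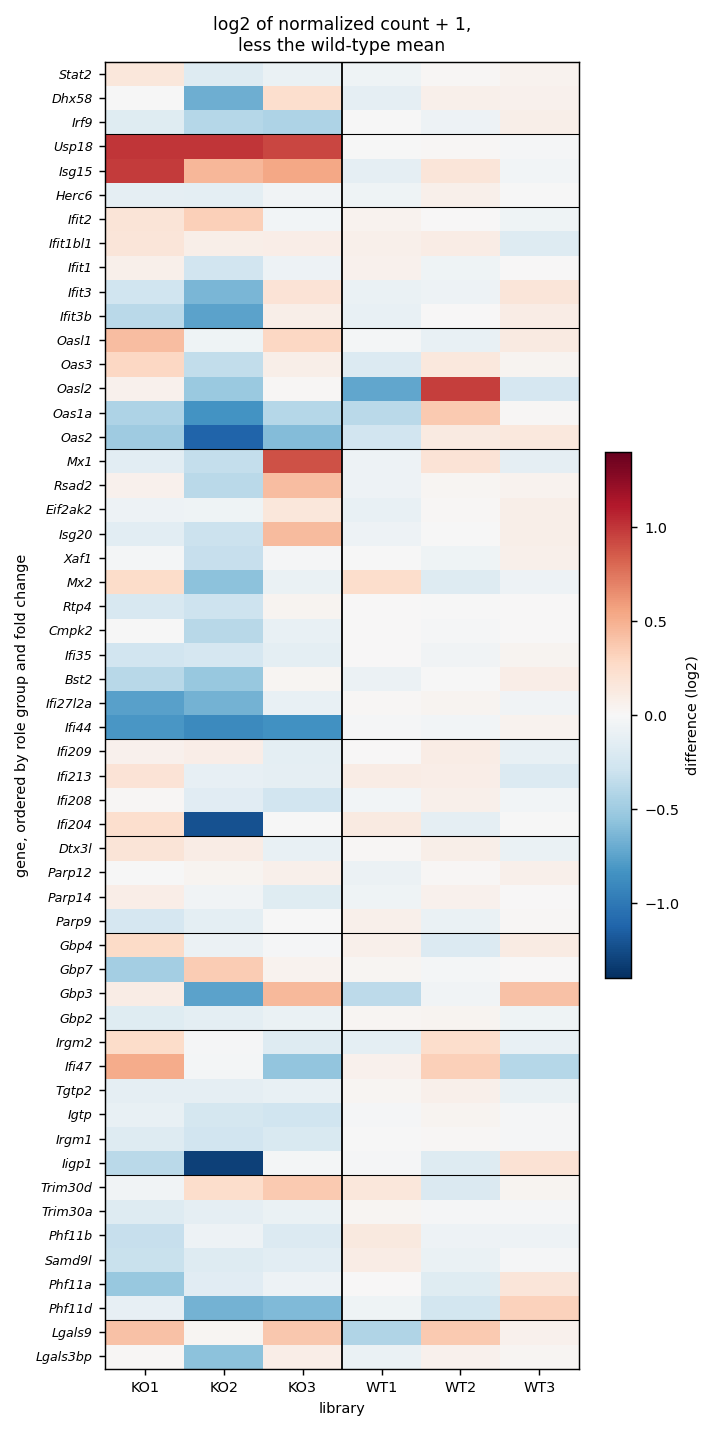
Difference of log2 (normalized count plus 1) from the wild-type mean for each of the 54 genes (rows, by role group and fold change) in each library (columns, Trim28 KO left of wild-type), red for higher and blue for lower. Usp18 is red and Ifi44 blue in all 3 knockout libraries, while in Oas1a, Ifit3b, Iigp1 and Lgals3bp the deepest blue is in KO2.

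Levels were compared between genes per kilobase of transcript. Ifi27l2a was the highest, at 7562 ± 1965 normalized reads per kilobase in knockout and 10544 ± 351 in wild-type libraries. Samd9l followed at 5137 ± 307 in knockout and 5967 ± 410 in wild-type libraries, then Ifi209 at 5074 ± 418 in knockout and 5056 ± 355 in wild-type libraries, and this pair overlapped in the knockout libraries. Ifi208 reached 4069 ± 400 per kilobase in knockout and 4463 ± 206 in wild-type libraries. Usp18 reached 2775 ± 75.7 per kilobase in knockout and 1410 ± 16.1 in wild-type libraries, and by its mean over all 6 libraries it stood at the 92.5th percentile of rows tested. At the low end, Gbp7 had 2.22 ± 0.666 per kilobase in knockout and 2.20 ± 0.0398 in wild-type libraries. Of the 54 genes, 27 had a mean of at least 1000 normalized reads and 11 a mean under 100. The median standard error of the log2 fold change was 0.31 among those 11 and 0.11 among the other 43. Estimates were thus more precise in the more abundant genes, though small differences there, such as that of Irgm1, did not pass the test.

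**Figure D5:**
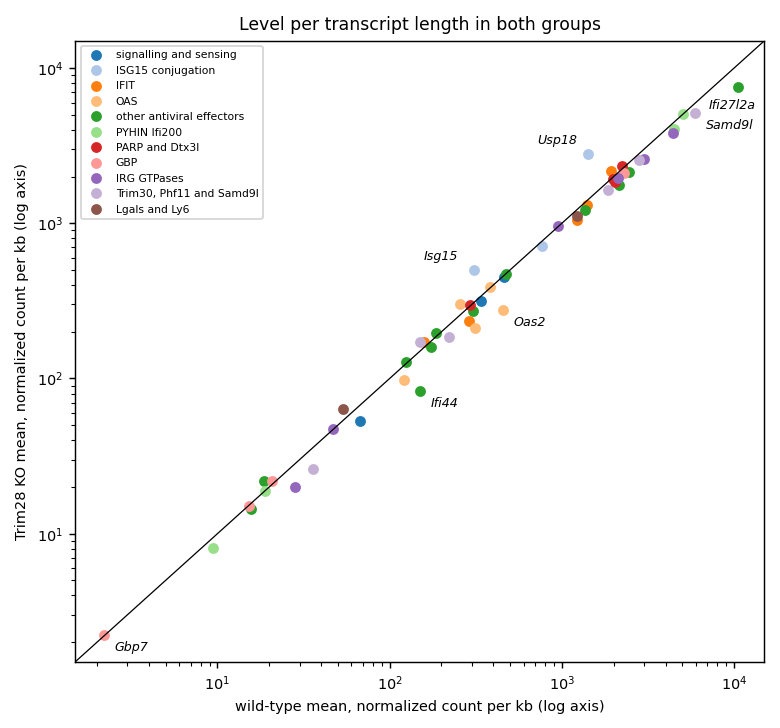
Mean normalized read count per kilobase of transcript in Trim28 KO libraries (vertical, log axis) and wild-type libraries (horizontal, log axis) for the 54 genes, coloured by role, with the line of equal levels. The genes span from Gbp7 at about 2.2 to Ifi27l2a at 7562 in knockout and 10544 in wild-type libraries, and Usp18 and Isg15 lie above the line while Ifi44 and Oas2 lie below it.

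The tested genes were also set apart by the response element. The 25 tested genes with a match had 0 called in limma, 4 at an unadjusted p under 0.05 and a median log2 fold change of -0.09. The 17 with an entry and no match, Ifi44 among them, had 1 called lower, 3 at an unadjusted p under 0.05 and a median of -0.12. The 12 with no promoter entry, Usp18 among them, had 1 called higher, 3 at an unadjusted p under 0.05 and a median of -0.14. Over all rows the shares were 1.51% called and 12.7% at an unadjusted p under 0.05, and at these group sizes nothing is read from the counts.

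A further list of 80 interferon-responsive genes outside the 59 was examined for comparison, of which 69 were tested. Of these, 0 were called higher and 1 lower, 2 higher and 11 lower had an unadjusted p under 0.05 in limma, and the median log2 fold change was -0.10. Over all rows 1.51% were called and 12.7% had an unadjusted p under 0.05. Ms4a4c, a membrane protein of the Ms4a cluster, fell, with 843, 1078 and 1357 normalized reads in KO1, KO2 and KO3, against 2380, 1805 and 2238 in WT1, WT2 and WT3. The groups lay apart, with a log2 fold change of -0.99 (SE 0.18) and an adjusted p of 0.0332 in limma. Close relatives lie in the same cluster, so the value is uncertain to the extent that reads are shared. Tgtp1, the near copy of Tgtp2, averaged 4731 ± 84.8 in knockout and 6091 ± 128 in wild-type libraries, with a log2 fold change of -0.36 and an adjusted p of 0.0607. Mndal, a PYHIN protein, averaged 12460 ± 977 in knockout and 16253 ± 1044 in wild-type libraries, with a log2 fold change of -0.38 and an adjusted p of 0.115.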

How the data were processed

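RNA of sorted naive CD4 T cells was read as 100-base pairs, per the labels' protocols. The submitters' processing notes list the tools STAR, HTSeq and DESeq2 and the build mm10, without versions. Values in the single table of 19048 RefSeq transcript rows that the authors deposited are on a log10 scale, as found from the values. Turned back as 10 to the value minus 1, 100% of a library's values were multiples of 1 step (within 0.01 of a whole number), against at most 11.6% on a log2 or natural log scale, so the step is the worth of 1 read. Rows were named from a RefSeq gene table (18807 rows) and GENCODE M21 (108), and 133 stayed unnamed. The sources used here do not say how reads shared by transcripts or by near copies of a gene were assigned. Of the 56 matched genes, 21 had curated transcripts with no matched row, so part of their signal is not analysed here.

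limma 3.58.1 in R 4.3.3, with the empirical Bayes trend and no covariate, was fitted on log2 of the normalized count plus a pseudocount of 1 over all 6 libraries, for rows with a mean of at least 10. P-values are two-sided with Benjamini-Hochberg adjustment over 13022 rows. The pseudocount understates the change of low genes. Negative binomial models were planned only for raw counts, and limma's voom weights on the recovered reads, which called 160 rows against 196, stand in their place. Since the labels do not tie each library to its own mouse, p-values measure only the spread between these libraries. Precision is limited by 3 libraries per group and, for low genes, by depth, from 22005759 to 44372701 reads.

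The genes, role groups, other lists and markers were chosen with earlier results of these data known. Values in all libraries are given for genes that passed, then by smallest p to 12, for Stat2, Irf9, Isg15 and Usp18, and for the gene with the highest mean in each role group. Other lists are given by called genes, up to 3 of smallest p, and fixed pathway genes. Gene pairs were compared by shared 100-base windows of GENCODE transcripts, and protein sequences were not used here. Alternatives changed the pseudocount, filter, scaling or variance model, added a replicate block or a Y-linked covariate, left out each library in turn, or summed the rows of a gene. The 4 libraries with under 10 Y-linked reads were chosen as an alternative after seeing the data. 1 gene of the pathway list is not reported here.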

Additional observations from a re-analysis of the deposited data

How the results depend on the processing

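Over 19 alternatives, the log2 fold change of Usp18 stayed between 0.96 and 1.03 and that of Ifi44 between -0.92 and -0.79. Both passed the test in 19 of 20 settings, the main one included (adjusted p 0.000123 to 0.0673 for Usp18 and 0.00484 to 0.263 for Ifi44, limma). Both missed it among the 4 libraries with nearly no Y-linked reads (2 against 2, chosen after seeing the data), where 33 rows were called in all, with 0 genes of the list higher and 0 lower (Usp18 0.97, Ifi44 -0.83) and a median log2 fold change of -0.044. There Stat2 was at 0.0032, Ifi209 at -0.038 and Lgals3bp at 0.011, each with the sign opposite to that over all libraries. Rows called in all, 196 as reported, numbered 124 without the mean-variance trend and 114 to 562 when each library was left out in turn (562 without KO3, 114 without KO2, 124 without WT1, 127 without WT3). Without each library in turn, the number of listed genes called lower ran from 1 to 4 (4 without KO3) and their median log2 fold change from -0.17 to -0.030 (without KO2). With the Y-linked covariate 2 listed genes were called lower, Oas2 besides Ifi44. Oas2 passed in 2 settings, and Ifi27l2a and Bst2 in 1 each. Total-count scaling moved the median of all rows to 0.06 and that of the list to -0.07, with Stat2 at 0.017 and Parp14 at 0.013. Leaving out each library changed the sign of Stat2 (-0.14 to 0.032), Oas3 (-0.13 to 0.19), Ifi209 (-0.047 to 0.074), Parp14 (-0.11 to 0.023) and Lgals3bp (-0.28 to 0.056), none of which passed the test. The replicate block called 175 rows, with 1 listed gene higher and 1 lower. Deviations of same-numbered libraries correlated at -0.31, 0.26 and 0.36, and those of other pairs at -0.44 to 0.37. Each group was centred on its own mean, so these values cannot show whether libraries were paired. The cause of the differences between settings was not tested.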

Other observations

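Ifi44l, the paralog that lies next to Ifi44 on chromosome 3 and is not among the 59 genes, was chosen here after its values were seen. It was listed at 0 in KO1, KO2 and KO3, and at 26.5, 0 and 44.0 normalized reads in WT1, WT2 and WT3. The groups overlap at 0 because of WT2, and the row did not pass the test (adjusted p of 0.373 in limma). Ly6c1, a surface antigen of naive and memory T cells that interferon raises, averaged 224 in knockout and 111 in wild-type libraries, with a log2 fold change of 0.98 and an adjusted p of 0.163 in limma, among the 2 of the further list higher at an unadjusted p under 0.05. The other was Gbp5, a guanylate-binding protein, which averaged 1362 ± 170 in knockout and 963 ± 94.4 in wild-type libraries, with a log2 fold change of 0.50 and an adjusted p of 0.126 in limma. Gbp11 lay the other way, at 407 in knockout and 622 in wild-type libraries, with a log2 fold change of -0.64 and an adjusted p of 0.289 in limma. Of 5 regulatory T cell markers, 4 were tested and all 4 had a log2 fold change above 0, while 49.6% of all rows lay below 0. Of the 4, 1 was called in limma, 3 had an unadjusted p under 0.05 and 3 were higher in every knockout library (Il2ra, Ctla4 and Tnfrsf18). Over all rows these shares were 1.51%, 12.7% and 9.21%, and with 4 genes nothing is read from the counts. Il2ra, a chain of the interleukin-2 receptor, rose, with 358, 373 and 714 normalized reads in KO1, KO2 and KO3, against 172, 151 and 188 in WT1, WT2 and WT3. Its log2 fold change was 1.43 (SE 0.26), with an adjusted p of 0.0326 in limma, while Ctla4 and Tnfrsf18 had 0.51 and 0.32. Foxp3, below the filter, was at 2.39 to 11.4 in knockout and 6.97 to 9.90 in wild-type libraries.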
